A study of Solanum tuberosum and Solanum acaule with 12 samples.

Results

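In shoots of the potato cultivar Atlantic, 46 transcribed loci were at least 4-fold lower in every freezing library than in any control library. They were chosen among 60683 loci on their own values: the locus had a place in the deposited placement table, its lowest control value was at least 10, and its highest freezing value was at most 25% of that lowest control value. A locus here is the sum of all assembled transcripts with the same assembly number, and the 46 loci held 318 of 252591 transcripts. Of the 11732 placed loci that met the control minimum, called expressed loci here, the 46 were 0.392%. Since the freezing and control values chose them, their fall is a description and was not tested.

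The study set shoot explants of Solanum tuberosum cv. Atlantic, an autotetraploid crop, beside those of the wild allotetraploid Solanum acaule, and only the 6 Atlantic libraries are used here. Chamber temperature fell by 2 °C each hour for the freezing explants, starting at 22 °C and ending at -4 °C, while controls stood in long days. Each of the 2 groups held 3 replicates that the labels call biological, without saying whether they came from separate plants, so spreads are those between these libraries. The labels give no time of sampling and do not say whether light and handling were alike in both groups.

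Cultivated potato is a frost-sensitive crop with little capacity to acclimate to cold, while several wild relatives, S. acaule among them, survive freezing. In plants exposed to cold, transcripts for growth and photosynthesis often decline while stress-response transcripts accumulate. A transcript level reflects both synthesis and decay, and a single measurement does not separate them. No locus, transcript or gene model (0) could be matched to a reference gene name, so no function is given for any locus, no sequence is shown, and the shoot label was not checked against marker genes.

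Values are a deposited signal in the form of TPM scaled by a library factor. The 6 libraries summed to between 961746 and 1102442, held between 25501 and 27251 loci at a signal of 1 or more, and correlated at 0.920 to 0.975 within a group and 0.901 to 0.922 between groups (Pearson's r of log2 values across loci, which are not independent replicates). Freezing replicate 2 had the fewest such loci and the highest total. Sequencing depth is unknown.

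Together the 46 loci held 0.0584%, 0.114% and 0.103% of the signal of freezing replicates 1 to 3, against 1.49%, 0.862% and 1.38% in control replicates 1 to 3. The means were 0.0920% ± 0.0295 after freezing and 1.24% ± 0.336 in control (SD, n = 3 each). The ranges are far apart, as the choice of loci requires. Control replicate 2 was the lowest control while freezing replicate 1 was the lowest of all. In bulk shoots, fewer cells of a type and less RNA per cell cannot be told apart.

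Single loci kept between 0.287% and 18.1% of their mean control level after freezing, with a median of 7.33%. By means, 38 of the 46 were at least 8-fold lower, 34 at least 10-fold, 13 at least 20-fold and 2 at least 50-fold. Mean signal ran from 0.0677 to 314 after freezing, with a median of 5.61, and from 15.0 to 3426 in control, with a median of 56.6. For 29 loci all freezing values were under 10, for 8 they were under 2, and for 3 they were under 1. The limit on extremes therefore took in both abundant transcripts that stayed measurable and modest ones that came close to 0.

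**Figure D1:**
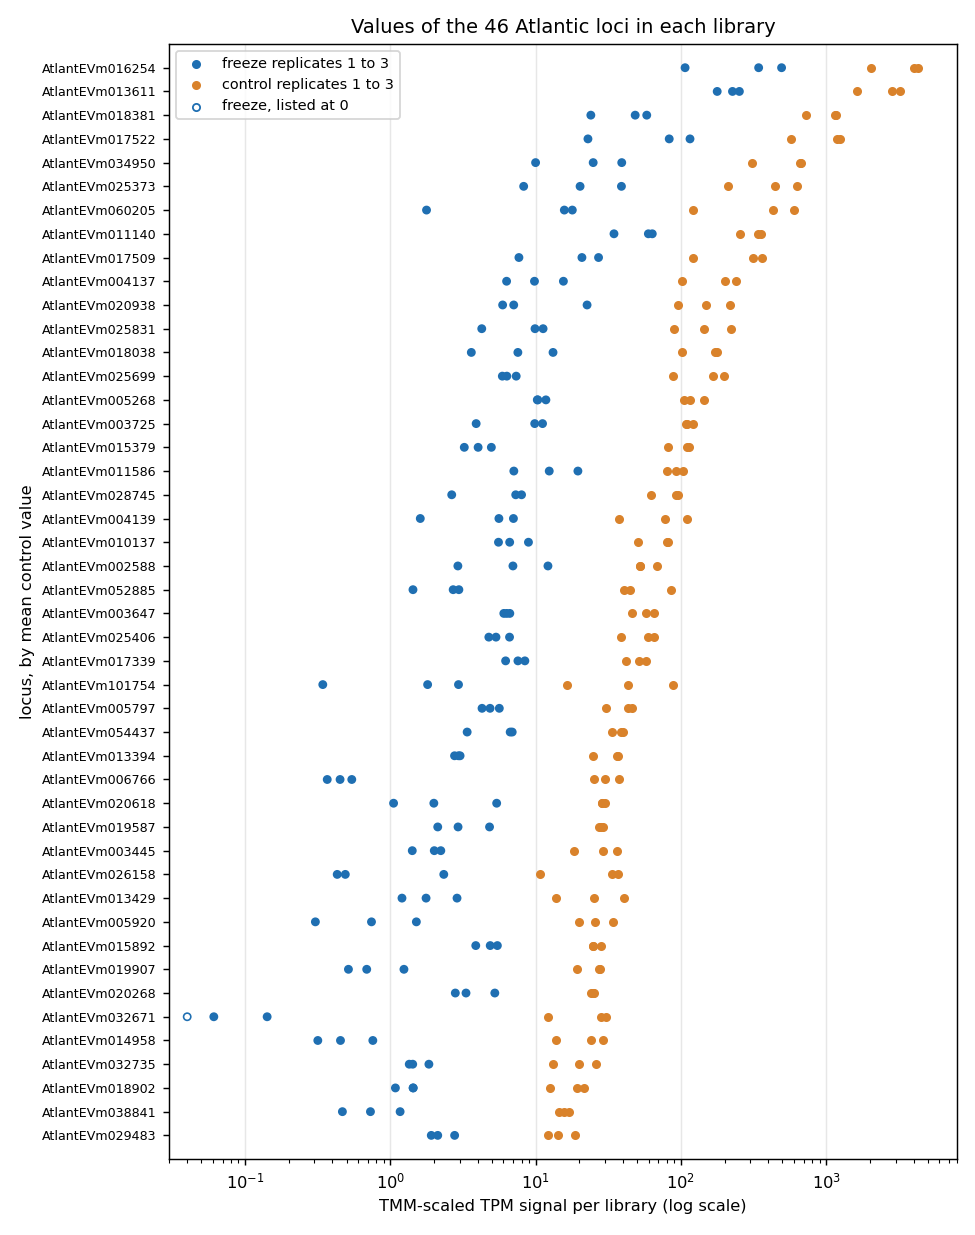
Signal of each of the 46 loci (rows, ordered by mean control signal) in every library on a log axis, with freezing replicates in blue and control replicates in orange; an open circle marks a value listed at 0. Each row has a gap between the groups, as the choice of loci requires, and control means run from 15.0 to 3426.

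The size of the cut showed no steady order with abundance. The 4 loci with a control mean of at least 1000 kept a median of 7.95% of it, the 13 loci between 100 and 1000 kept 5.59%, the 14 between 30 and 100 kept 10.1%, and the 15 between 10 and 30 kept 7.34%. In the limma model over all 27034 tested loci, every one of the 46 was called lower. The background was 8.54% of tested loci called lower and 4.54% called higher, and since the rule used this contrast the count of 46 says nothing further. The median log2 change on the scale log2(signal + 1) was -3.65 over the 46 loci, 0.04 over the expressed loci and -0.02 over all tested loci. All freezing values lay under all control values for 5448 tested loci (20.2%), so separation of the groups alone was common.

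**Figure D2:**
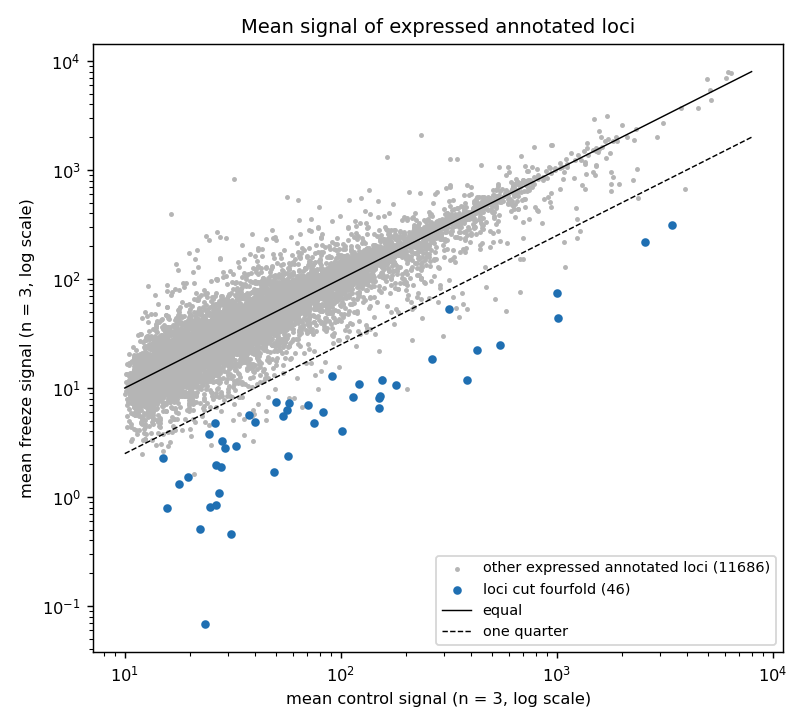
Mean freezing signal against mean control signal (n = 3 each, log axes) of the 46 loci in blue and the other 11686 expressed loci in grey, with a solid line of equality and a dashed line at 25%. The 46 loci lie under the dashed line over the whole range of control levels, and a few grey points lie there too because the rule asked for the extremes and not the means.

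Limma called 194 loci lower with a log2 change of -2 or less, of which the 46 were a part. Among the other 148, 64 had a control value under 10, and 27 met the control minimum but were without a place in the placement table. The other 57 were placed and expressed but missed the limit on extremes. The 46 are thus the portion of these 194 loci that was placed, met the control minimum and was well separated.

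Close to the fold limit the members blend into the rest. Just inside stood AtlantEVm011140, AtlantEVm011586 and AtlantEVm016254, whose highest freezing value was 24.8%, 24.5% and 24.4% of the lowest control value. Just outside stood AtlantEVm009660, AtlantEVm024854 and AtlantEVm037035, at 25.2%, 25.3% and 25.4%. Between 20% and 25% there were 14 of the 46 loci, and 21 expressed loci lay between 25% and 30%. At the control minimum, AtlantEVm026158, AtlantEVm029483 and AtlantEVm032671 were just inside with lowest control values of 10.8, 12.1 and 12.1, and AtlantEVm023464, AtlantEVm015459 and AtlantEVm011651 just outside with 9.75, 9.11 and 9.06.

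Most of the signal lost came from 4 loci, AtlantEVm016254, AtlantEVm013611, AtlantEVm018381 and AtlantEVm017522. They held 58.4% to 73.0% of the summed signal of the 46 loci in the freezing libraries and 59.6% to 68.7% in the control libraries. Without them the other 42 loci held 0.0294% ± 0.00455 of library signal after freezing and 0.429% ± 0.0801 in control (SD, n = 3 each).

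AtlantEVm016254 had a signal of 107, 493 and 343 in freezing replicates 1 to 3, against 4251, 2019 and 4006 in control replicates 1 to 3. This locus was the most abundant of the 46 and kept 9.17% of its mean control level, 314 ± 195 after freezing and 3426 ± 1224 in control (SD, n = 3 each). Its 23 transcripts were placed on 3 copies of chromosome 2, and the leading one, at 28752386 to 28830979 on copy 3, carried 18.9% of its control signal. Chromosome names in the placement table end in a number from 0 to 4, called a copy here. The table does not say what the number stands for, and its genome build is not given in the sources used here.

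AtlantEVm013611 had 178, 253 and 226 in the freezing replicates, against 3229, 1625 and 2831 in the controls. Relative to their mean, its freezing values spread the least of the 4 loci, with an SD of 38.0 around 219. The leading transcript was placed at 52238779 to 52240382 on copy 4 of chromosome 5 and on an unassigned scaffold. AtlantEVm018381, on copies 2 and 3 of chromosome 3, stood at 24.0, 58.2 and 48.4 after freezing, against 1168, 727 and 1141 in control. It kept the least of the 4, at 4.30% of its control mean. AtlantEVm017522, a neighbour of AtlantEVm016254, stood at 22.9, 115 and 83.1 after freezing, against 1244, 574 and 1195 in control.

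The next loci by control level had the same shape. AtlantEVm034950, on chromosome 3, had 9.995, 39.1 and 24.9 after freezing, against 663, 309 and 674 in control. AtlantEVm025373, also on chromosome 3, had 8.28, 39.0 and 20.2, against 633, 210 and 445 in control. In both, the freezing libraries stood in the order replicate 1, 3, 2 from low to high, and control replicate 2 was the lowest control. AtlantEVm060205 had 1.78, 17.9 and 15.8 after freezing, against 605, 122 and 428 in control. Its log2 change of -5.05 was the most negative of the 46, and its SE of 0.89 the widest. AtlantEVm017509 had 7.68, 27.1 and 20.8 after freezing, against 363, 121 and 313 in control, and AtlantEVm011140, on chromosome 7, had 34.6, 63.5 and 59.7, against 354, 256 and 338 in control. AtlantEVm011140 kept 16.7% of its control mean and was among the shallowest cuts. AtlantEVm004137, 1 transcript at 23479453 to 23482417 on copy 4 of chromosome 11, had 6.31, 9.82 and 15.5 after freezing, against 201, 239 and 102 in control. Here control replicate 3 was the lowest, unlike the loci above it.

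Several loci of modest level came close to 0. AtlantEVm032671, on chromosome 6, was listed at 0, 0.142 and 0.061 in the freezing replicates, against 30.5, 12.1 and 28.0 in the controls. It kept 0.287% of its control mean, the smallest share of the 46, and 99.1% of its control signal came from 1 transcript. AtlantEVm006766, on chromosome 9, had 0.451, 0.368 and 0.543, against 30.04, 37.7 and 25.4 in control, and was 68.4-fold lower by means. These were the loci with cuts over 50-fold, and in both no freezing value reached 1. 

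Others with strongly negative log2 changes lay in the middle of the range. AtlantEVm015379, on chromosome 11, had 4.96, 3.23 and 4.02 after freezing, against 111, 113 and 81.4 in control. AtlantEVm025699, on chromosome 8, had 7.35, 5.90 and 6.34, against 198, 166 and 87.7 in control. AtlantEVm018038, on chromosome 1, had 3.61, 13.2 and 7.55, against 172, 102 and 178 in control. Replicates lay within a factor of 2 of each other after freezing in AtlantEVm015379 and AtlantEVm025699 and not in AtlantEVm018038. AtlantEVm101754, on chromosome 3, had 0.343, 2.95 and 1.81 after freezing, against 87.6, 16.4 and 43.4 in control, and its control replicates spread more than 5-fold.

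Other loci showed a cut with little spread between replicates. AtlantEVm003647, on chromosome 10, had 6.04, 6.64 and 6.32 after freezing, against 65.6, 57.6 and 45.8 in control. AtlantEVm013394, on chromosome 2, had 2.94, 2.77 and 3.02, against 36.3, 36.8 and 24.9 in control. AtlantEVm005268, on chromosome 1, had 10.3, 11.8 and 10.4, against 144, 115 and 105 in control. In these loci the 3 freezing values nearly coincide, and the spread lies in the controls. AtlantEVm015892, on chromosome 9, had 5.45, 4.87 and 3.87 after freezing, against 24.999, 28.3 and 24.97 in control, the smallest cut of the 46 at 5.51-fold by means. AtlantEVm020268, AtlantEVm017339, AtlantEVm005797, AtlantEVm029483 and AtlantEVm038841, with AtlantEVm006766 described above, completed the 10 loci with the least spread. The means of the first 5 after freezing were 3.79, 7.40, 4.92, 2.27 and 0.789, against 24.7, 50.2, 40.0, 15.0 and 15.7 in control. Spread here is the SD of log2(signal + 1) summed over both groups, a scale that shrinks differences between low values. AtlantEVm038841 had freezing values of 0.730, 0.468 and 1.17. Their ratio of highest to lowest was above the median of 2.39 over the 46, so its place here depends on that scale.

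The 16 loci not described one by one had mean signals between 0.510 and 11.9 after freezing and between 19.6 and 155 in control. They kept 2.29% to 15.1% of their control means, with a median of 7.27%, so they lay inside the range of the loci described above.

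Replicates of the 46 loci spread more than those of other loci. The highest value was a median of 2.39 times the lowest among the freezing libraries and 1.70 times among the controls, against 1.44 and 1.24 over the expressed loci. The freezing values of these loci were low by choice, and the difference in spread was not tested. The order of the replicates was alike in the most abundant loci. In each of the 9 loci with the highest control means, control replicate 2 was the lowest control, freezing replicate 1 the lowest freezing value and freezing replicate 2 the highest. That order held in 4 of the other 37 loci and in 1120 of the 11732 expressed loci (9.55%). In 24 of the other 37, control replicate 3 was the lowest control instead. The number 9 was set after the order was seen, since it ends at the tenth locus, AtlantEVm004137. These 9 loci include 4 neighbours on chromosome 2 and 2 on chromosome 3, so they are not independent.

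**Figure D3:**
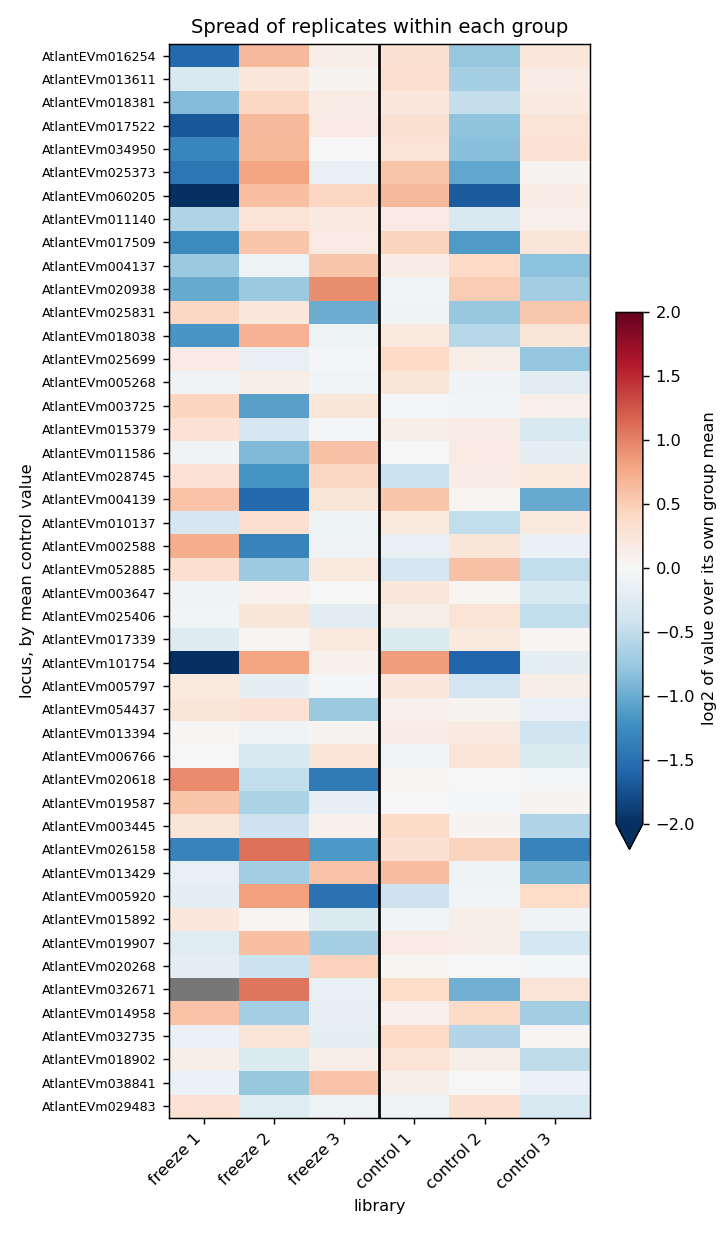
Log2 of each value over the mean of its own group, for the 46 loci (rows, ordered by mean control signal) in the freezing libraries at left and the control libraries at right; red is above and blue below the group mean, and grey marks a value listed at 0. The top 9 rows share blue in freezing replicate 1 and control replicate 2, and lower rows more often have blue in control replicate 3.

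Some calls depended on a single control, as they did over all tested loci. Without control replicate 1, limma called 36 of the 46 lower, without control replicate 3 it called 41, and without any one of the other 4 libraries 46. Over all tested loci 2308 (8.54%) were called lower with every library in. That number fell by a larger share than the members in both of these fits and with a replicate block (counts are given under processing below). It also fell without control replicate 2 or freezing replicate 3, where all 46 were still called. The 46 were chosen for wide separation of the groups, so a smaller loss among them follows from the choice. Whether the loss of calls differs between the 46 and other loci was not tested. AtlantEVm016254, AtlantEVm017509, AtlantEVm017522, AtlantEVm060205 and AtlantEVm101754 were not called without control replicate 1, without control replicate 3 or with a block for the replicate number. AtlantEVm025373 was not called without control replicate 1 or with the block, and AtlantEVm026158 was not called without control replicate 1. The highest adjusted p among the 30 named loci of the 46 was 0.0755 without control replicate 1, 0.070 without control replicate 3 and 0.0597 with the block (limma, Benjamini-Hochberg). The rule itself fixes the direction in any fit without a library.

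Each library was also left out of the choice in turn. A locus chosen on 5 libraries that also meets the limit in the sixth is one of the 46 by definition. The count of 46 is therefore fixed, and only the number of loci chosen can vary. Loci chosen on 5 libraries also met the limit in the sixth in 46 of 64 cases for freezing replicate 1 (71.9%), 46 of 77 for freezing replicate 2 (59.7%) and 46 of 55 for freezing replicate 3 (83.6%). For control replicates 1, 2 and 3 the counts were 46 of 54 (85.2%), 46 of 63 (73.0%) and 46 of 79 (58.2%). The 4-fold limit was thus strict for freezing replicate 2 and control replicate 3, the libraries that removed the most candidates. The groups stayed apart in the left-out library for every chosen locus except 2 of the 77 chosen without freezing replicate 2. For the 46 among them the rule requires this, so it adds no separate evidence.

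The cut ran through nearly all transcripts of the loci. Of 199 transcripts with a mean control signal of at least 1, 192 were at 25% or less of it after freezing, 7 lay above 25% but lower than control, and 0 were higher. The 7 belonged to 5 loci, and the least reduced was a transcript of AtlantEVm010137 that kept 57.7% of a control mean of 1.16. At a minimum of 5, 137 of 138 transcripts were at 25% or less. The remaining 119 transcripts were under 1 in control, 13 of them listed at 0 in all 6 libraries. Among all 318, 18 were higher after freezing by means, but none of these reached a freezing mean of 1. Locus sums fix much of this, since an abundant transcript must follow its locus, so the count says only that no abundant transcript was retained.

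Among the 38 loci with at least 2 transcripts at a mean control of 1, the leading transcript was the same after freezing and in control in 29 (76.3%), against 84.5% of the expressed loci. With a minimum of 5 it was the same in 24 of 30 (80.0%), against 86.0% of the expressed loci. In AtlantEVm017522 the leading transcript changed. Its transcript 5 stood at a mean of 20.4 after freezing and 412 in control, and its transcript 3 at 43.1 and 318. After freezing the leading transcript is read from low values, where order is less certain.

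The loci had fewer assembled transcripts and shorter placements than the expressed loci. They had a median of 4.5 transcripts, against 8 over the expressed loci, 8 over the 21 placed loci raised 4-fold by the mirror rule and 9 over 2110 steady loci, whose 6 values all lay within 1.2 times of their mean. Of the 46, 6 (13.0%) had 1 transcript, against 3.18% of the expressed loci. The median span of the placed transcripts was taken for each locus. Its median over the 46 was 2450 bases, against 4639 over the expressed loci, 2706 over the raised and 6015 over the steady loci. Counting copies 1 to 4 only, placements on 4 copies were found for 23.9% of the 46 and 38.2% of the expressed loci, and on 2 copies for 30.4% and 19.0%. Copy 0, left out of these counts, held a placement of 21.7% of the 46 and 29.3% of the expressed loci. These differences were not tested. Among the 21 raised loci, 3 had 1 transcript (14.3%), 33.3% were on 4 copies and 9.52% on 2 copies.

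The 46 loci lay on all 12 chromosomes, with 8 on chromosome 1 (17.4%, against 13.0% of the expressed loci), 6 on chromosome 2, 5 each on chromosomes 4 and 6, and 1 on chromosome 12. AtlantEVm038841 was the only one placed on more than 1 chromosome number. Its transcripts lay on chromosomes 1, 6 and 12. Within 50 kb of each other on a copy, 9 of the 46 loci formed 3 groups. With 200 kb there were 4 groups with 11 loci, and with directly adjacent placed loci 2 groups with 6.

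The largest group lay on chromosome 2 and held AtlantEVm016254, AtlantEVm017522, AtlantEVm017509 and AtlantEVm060205. Their placements covered 29352159 to 29389155 on copy 2 (37.0 kb), 28728503 to 28830979 on copy 3 (102 kb) and 25619513 to 25799902 on copy 4 (180 kb). On copy 4 the first 0.753 kb held 1 transcript of AtlantEVm016254 with a control mean of 11.4, and the next placement began at 145 kb. On copy 3 the leading transcript of AtlantEVm016254 alone ran from 23.9 to 102 kb, and the other placements ended by 24.6 kb. Of their 38 transcripts, 37 were placed on 1 copy only. They overlapped 31 gene models, of which 16 carried transcripts of at least 2 of the 4 loci. The summed signal of the 4 loci was 139, 653 and 462 in freezing replicates 1 to 3, against 6463, 2836 and 5942 in control replicates 1 to 3. The means were 418 ± 260 after freezing and 5081 ± 1961 in control (SD, n = 3 each). The groups did not overlap, as the choice of each of the 4 loci requires. Loci that interleave on the same gene models may share reads, so the 4 values are not independent measurements.

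**Figure D4:**
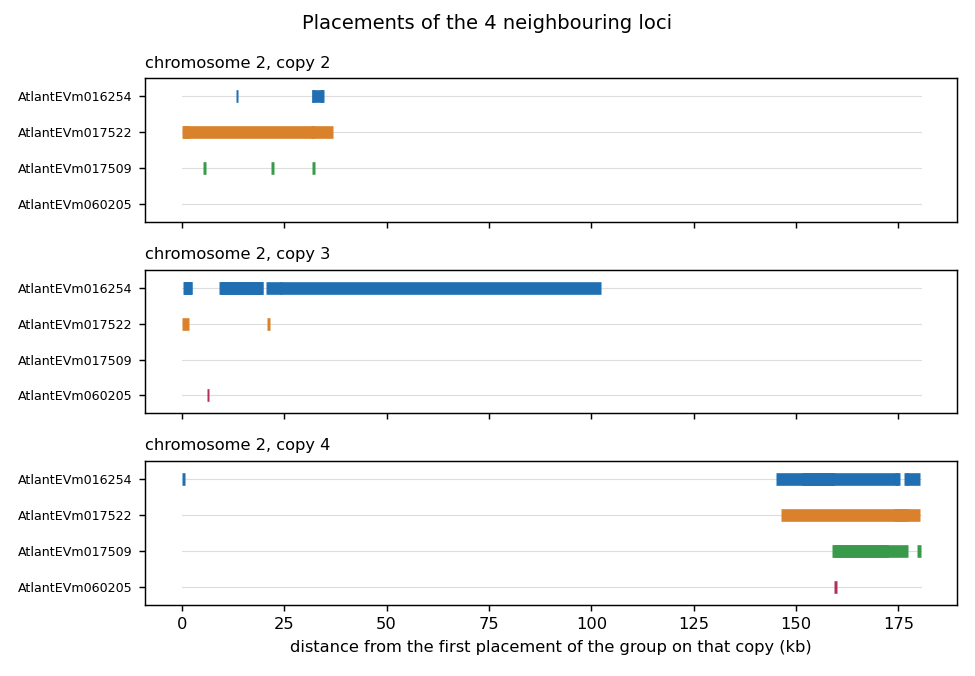
Placements of transcripts of the 4 neighbouring chromosome 2 loci on copies 2, 3 and 4, as bars from start to end against the distance in kb from the first placement on that copy. AtlantEVm016254, AtlantEVm017522 and AtlantEVm017509 interleave within 37.0 kb on copy 2, and some long bars are single placements that span several gene models. AtlantEVm060205 has no placement on copy 2, and AtlantEVm017509 has none on copy 3.

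The second group lay on chromosome 1. On copy 1, AtlantEVm018038 was placed at 54797363 to 54798882 and AtlantEVm010137 overlapped it at 54798324 to 54804991, with AtlantEVm003725 46.99 kb further on at 54851985 to 54862243. The same 3 loci lay near each other on copies 2 and 4. AtlantEVm010137 had 5.55, 8.93 and 6.63 after freezing, against 80.8, 50.3 and 81.5 in control. AtlantEVm003725 had 11.2, 3.90 and 9.86 after freezing, against 110, 109 and 121 in control. Freezing replicate 2 was the highest in AtlantEVm010137 and the lowest in AtlantEVm003725, so the order of replicates differed between these neighbours. AtlantEVm018038, given above, had the same order of replicates as AtlantEVm010137 in both groups. The third group held AtlantEVm034950 and AtlantEVm025373, 9.32 kb apart at 768621 to 769226 and 778548 to 779089 on copy 3 of chromosome 3.

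Some loci that shared gene models with the 46 were lower as well. On the 205 gene models that carried the 46, 59 other loci were tested, of which limma called 16 lower (27.1%) and 2 higher (3.39%), with a median log2 change of -0.37. The lower loci were concentrated on the models of a few members. Several lay on those of AtlantEVm025373, AtlantEVm034950 and AtlantEVm101754. Others came in pairs, on models of AtlantEVm010137 with AtlantEVm018038, of AtlantEVm026158, of AtlantEVm025406 and of AtlantEVm038841. Within 50 kb but on other gene models, 21 of 311 loci were lower (6.75%) and 12 higher (3.86%), with a median of -0.03. The share over all tested loci was 8.54% lower, and over tested placed loci 6.48%. Lower loci were thus more frequent on the same gene models and not in the wider surroundings, a difference that was not tested. How reads of near-identical transcripts were assigned is not known, so a shared gene model may mean shared reads.

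On chromosome 3 the gene models of AtlantEVm025373, AtlantEVm034950 and AtlantEVm101754 carried other abundant loci that fell. AtlantEVm017389 had 33.0, 130 and 62.7 after freezing, against 872, 454 and 702 in control (log2 change -3.31, SE 0.50, limma adjusted p = 0.0129). AtlantEVm017386 averaged 65.5 ± 39.9 after freezing and 521 ± 147 in control, and AtlantEVm019582 44.9 ± 29.4 and 354 ± 114 (SD, n = 3 each). AtlantEVm017406, between these 2 in control level, averaged 52.7 ± 37.3 after freezing and 385 ± 89.3 in control. In each of these loci the highest freezing value and the lowest control value came from replicate 2, as in the 9 most abundant of the 46 loci. The first was over 25% of the second. On chromosome 1 AtlantEVm018057 had 98.4, 227 and 135 after freezing, against 800, 530 and 766 in control (log2 change -2.24, SE 0.34, limma adjusted p = 0.0126), on gene models of AtlantEVm010137 and AtlantEVm018038. These loci were named for their level after their values were seen.

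The 2 loci called higher stood on gene models of loci that were cut. AtlantEVm020253 had 199, 152 and 176 after freezing, against 48.3, 71.0 and 70.2 in control (log2 change 1.47, SE 0.20, limma adjusted p = 0.0101), on a gene model of AtlantEVm006766. AtlantEVm007770 had 84.9, 76.0 and 61.9 after freezing, against 28.2, 29.0 and 44.2 in control (log2 change 1.13, SE 0.22, limma adjusted p = 0.0241), on gene models of AtlantEVm011586 and AtlantEVm026158. In both the groups did not overlap.

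Copies 1 to 4 of a locus were compared where transcripts had a single copy. Transcripts placed on a single copy gave at least 2 copy values with a mean control of 1 for 29 of the 46 loci, 82 values in all, every one lower after freezing and 81 at 25% or less of control. The exception was copy 1 of AtlantEVm010137, the single low transcript named above, while its copies 3 and 4 kept 7.71% and 11.1%. With a minimum of 5, all 66 copy values of 26 loci were at 25% or less. The choice on locus sums fixes much of this, since a copy with most of the signal must follow its locus. The plain log2 ratio of freezing over control means, with no pseudocount, differed between the copies of a locus by a median of 0.85. The difference ran from 0.02 in AtlantEVm011140 to 4.07 in AtlantEVm038841, whose values lie on different chromosomes. How far reads were shared between copies is not known, so copies may not be independent.

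The widest differences came from copy values of low level, whatever the level of the locus. AtlantEVm038841 has its widest difference between a chromosome 12 transcript, with a mean of 0.0113 after freezing and 1.52 in control, and a chromosome 6 transcript, with 0.454 and 3.63. Its chromosome 1 transcript had 0.130 after freezing and 7.60 in control. AtlantEVm005268 had 1.77 after freezing and 18.0 in control on copy 1, and 0.0377 and 3.60 on copy 3. Its leading transcript was placed on copies 3 and 4 alike and is in neither value. AtlantEVm018902, on chromosome 5, kept 1.61% of control on copy 1 and 11.5% on copy 4. These shares rest on freezing values under 1 except that of copy 1 of AtlantEVm005268. AtlantEVm020268, on chromosome 2, kept 14.9%, 21.0%, 6.21% and 24.4% on copies 1 to 4, from control means between 4.67 and 7.51.

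**Figure D5:**
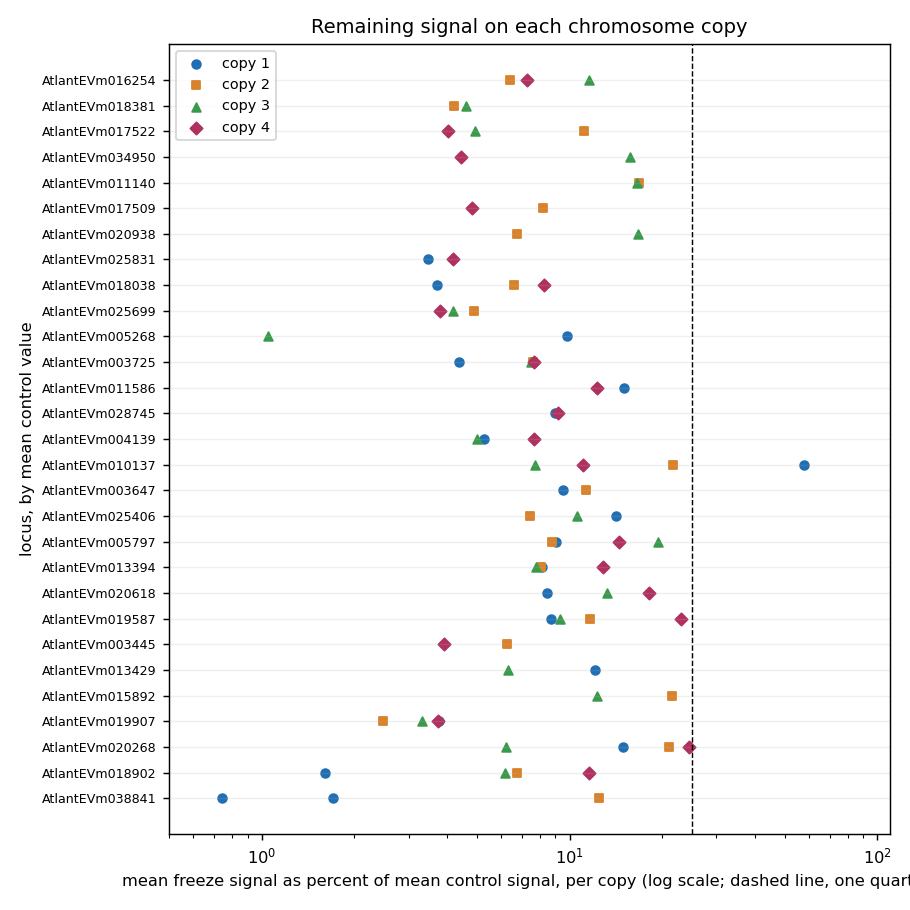
Mean freezing signal as percent of mean control signal on each chromosome copy with a mean control of at least 1 (log axis), for the 29 loci with at least 2 such copy values; symbols give the copy number, and AtlantEVm038841 has copy 1 of chromosomes 1 and 12. Of the 82 points, 81 lie at or left of the dashed line at 25%.

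In the abundant loci the copies were measured at far higher signal. AtlantEVm016254 had 67.4 after freezing and 1053 in control on copy 2, 201 and 1747 on copy 3, and 45.4 and 626 on copy 4. Copy 3 carried most of the signal in both groups and kept 11.5% of it, the largest share of the 3 copies. AtlantEVm017522 kept 11.2%, 4.92% and 4.01% on copies 2, 3 and 4, and AtlantEVm018381 kept 4.21% and 4.61% on copies 2 and 3. Copies 2 and 3 of AtlantEVm011140 kept 16.8% and 16.6%, the closest pair of the 29 loci.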

How the data were processed

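Libraries were stranded and made from shoot mRNA, per the labels. The submitters' processing notes list Trimmomatic 0.39 and DESeq2 without roles. Aligner, assembler, abundance program and genome build: not given in the sources used here. In the table the authors deposited, each assembled transcript has 1 signal value per library. From its values it reads as TPM rescaled by a TMM factor, since the geometric mean of the 6 deposited TPM-scale totals was 1000000. Depth cannot be recovered from such values, and error is judged from 3 replicates per group.

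Rows were summed to loci in pandas 2.3.3. The 27034 loci that reached a signal of 1 in 3 or more libraries were fitted by limma 3.58.1 (R 4.3.3) on log2(signal + 1) with a variance trend, tested on both sides and adjusted after Benjamini-Hochberg at 0.05. This scale understates the change of low loci. All 46 members passed the filter on their control values alone. Fits without a library kept the same loci. The limma step was tested on simulated data. Coordinates are as deposited. Named loci follow a rule on control level, log2 change, spread, limits, neighbours and copy spread, and others are said to be named after their values were seen. The members, lists and rules were chosen with earlier results of these data known. Replicate numbers were not used as pairs: deviations of same-numbered libraries correlated at 0.08, -0.23 and 0.05, where 0.1 was asked of each. Alternatives were other pseudocounts, filters, limits, scalings and sums, a replicate block, and each library left out.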

Additional observations from a re-analysis of the deposited data

How the results depend on the processing

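The 46 loci became 176 with a fold limit of 2, 15 with 8 and 162 on group means in place of extremes. With a library left out there were 54 to 79, the most without freezing replicate 2 (77) and control replicate 3 (79); fewer libraries can only relax the rule. The share of library signal in the loci so chosen was 0.457% after freezing and 3.17% in control at the limit of 2, 0.00831% and 0.181% at the limit of 8, and 0.0927% to 0.240% and 1.13% to 2.67% with a library left out. The 2308 Atlantic loci called lower became 927 with the stricter filter of 5, 1343 with placed transcripts only, 5209 for rows as deposited, and 426 to 2531 with a library left out. Leaving out control replicate 1, 2 or 3 gave 426, 609 or 728, and leaving out freezing replicate 3 gave 1022. With the replicate block 724 were called, and 40 of the 46 members. With a library left out 36 to 46 members were called, and with the other settings 46. The pairing by replicate number is undecided, since no control correlated best with the freezing library of its own number. Of the 30 named members, 23 were called under all 14 alternatives. With a minimum of 5 in place of 1, transcripts at 25% or less were 99.3% in place of 96.5%, and copy values 100% in place of 98.8%. The causes of these shifts were not tested. Unknown depth limits the lowest values, where a value listed at 0 may be a failed estimate.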

Other observations

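A further 16 loci met both value limits but had no place in the placement table, and were left out for that reason. They made up 25.8% of the 62 loci at both limits, while 3.06% of all loci at the control minimum (370) were without a place, a difference that was not tested. The most abundant was AtlantEVm016004, with 11.2, 14.8 and 9.36 after freezing, against 122, 132 and 87.4 in control. AtlantEVm043271 had 0.258, 0.113 and 0.786 after freezing, against 13.0, 14.4 and 10.8 in control, and AtlantEVm001666 had 0.770, 0.677 and 0.639, against 20.8, 26.4 and 11.8. The groups do not overlap in any of the 16, as the limits require. By means the 16 were between 5.74-fold and 59.1-fold lower, with a median of 12.2-fold, and their control means ran from 11.3 to 114. These loci were named after their values were seen.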
